A study of Bos taurus with 40 samples.

Results

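The amino acid transporter genes were the 47 symbols of the count tables that begin with SLC1A, SLC3A, SLC6A, SLC7A, SLC36A, SLC38A or SLC43A, out of 13570 symbols listed. Of these, 46 are transporter genes, while SLC7A6OS matched only through its name and lies beside SLC7A6. RNA was sequenced from abdominal (visceral) adipose tissue, liver, longissimus dorsi muscle and pituitary gland of Korean cattle slaughtered at an age of over 22 months. By the labels, each tissue was taken from the same 5 cows and 5 bulls, which gave 40 samples, and no treatment separated the animals. The sequenced tissues are mixtures of cells, so that fewer cells of a type and less RNA per cell cannot be told apart. The study asked which genes differ between the sexes in these tissues. Here the transporters were first compared between tissues and then between cows and bulls.

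Amino acids do not cross cell membranes unaided, and each cell type carries its own set of transporters. The SLC1 family carries glutamate, aspartate and small neutral amino acids. The SLC6 family couples the uptake of amino acids, neurotransmitters, creatine and betaine to sodium and chloride. SLC7 light chains exchange neutral or cationic amino acids across the membrane, and most of them reach it only when bound to a heavy chain, SLC3A1 or SLC3A2. The SLC38 family takes up glutamine, alanine and related amino acids with sodium, the SLC43 family passes large neutral amino acids by facilitated diffusion, and the SLC36 family moves small amino acids with protons. In the liver these proteins feed gluconeogenesis and urea synthesis, and in muscle they supply protein synthesis and release glutamine and alanine.

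At least 1 read was found for 46 of the 47 members, and these were tested among 13148 genes. SLC6A18 had no read in any sample. The members comprised 6 SLC1, 2 SLC3, 15 SLC6, 11 SLC7, 2 SLC36, 8 SLC38 and 3 SLC43 genes. Another 13 genes of these families, among them SLC38A1, SLC7A2, SLC7A11 and SLC1A2, were not among the symbols of the count tables. They were therefore not measured and are missing from the summed levels. Levels are CPM, read counts relative to the reads on genes of the library, scaled by TMM factors, and are given as mean ± SD over the 10 samples of a tissue unless another n is stated. CPM is not divided by transcript length, so levels were compared between tissues within a gene and not between genes.

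Libraries held 5173092 to 19165864 reads on genes, with a median of 10005607, and 3 reads corresponded to 0.132 to 0.793 CPM after TMM scaling. The tissue labels were checked against markers, and all 6 hepatocyte, 6 skeletal muscle fibre and 8 anterior pituitary markers, and the 5 measured adipocyte markers, were higher in their own tissue than in each other tissue. Pituitary also held the highest level of all 5 measured neuron markers, with a summed level of 314 to 439 CPM against at most 10.4 CPM in any other library. SNAP25 made up most of this sum, with 200 to 293 CPM. RBFOX3 was at 2.03 to 8.16 CPM in pituitary and overlapped with muscle, where it reached 5.20 CPM. A pair of libraries stood apart by sex-linked genes. The liver library labelled bull 3 carried 1401 CPM of XIST, and the Y-linked DDX3Y, USP9Y and ZFY were without reads in it. Its counts were nearest to those of the liver of cow 4. The chi-square of this pair was 15.8 per degree of freedom, against 45.8 or more for the nearest pairs of the other livers. The origin of the library was not tested. The fat library of bull 5 held 1.78 CPM of USP9Y against 28.1 to 34.1 in the other bull fat libraries. Its mean correlation with the other fat libraries, 0.906, was the lowest in fat. Values without these libraries are also given for the numbers of enriched and depleted members. The same holds for the main sex comparisons in liver, in fat and over tissues. Other tissue contrasts include these libraries unless stated.

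A gene was called between 2 tissues at an FDR adjusted P-value below 0.05 and a log2 fold change of at least 1 in size, with edgeR's quasi-likelihood F test. It was termed tissue-enriched or tissue-depleted where it was called in that direction against each of the 3 other tissues. By this rule 32 of the 46 members (69.6%) were enriched in 1 tissue, compared with 37.2% of all tested genes. The liver held 8 enriched members (17.4%, against 10.1% of all genes), fat 7 (15.2%, against 6.93%), muscle 9 (19.6%, against 8.13%) and pituitary 8 (17.4%, against 12%). Depletion was found for 16 members (34.8%, against 24.1%). Of these, 10 were liver-depleted (21.7%, against 9.26%), 3 muscle-depleted (6.52%, against 4.74%) and 3 pituitary-depleted (6.52%, against 5.92%). None was fat-depleted in the quasi-likelihood test or in DESeq2 (0%, against 4.19%), and 1 was when no minimum log2 fold change was set. In 13 members, enrichment in 1 tissue went with depletion in another. Without the 2 libraries that stood apart, 33 members were enriched and 16 depleted, with 8 fat-enriched, 4 muscle-depleted and 2 pituitary-depleted. Shares of all genes in these classes are not given without them, so a shift of the members cannot be told from one of all genes.

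**Figure D1:**
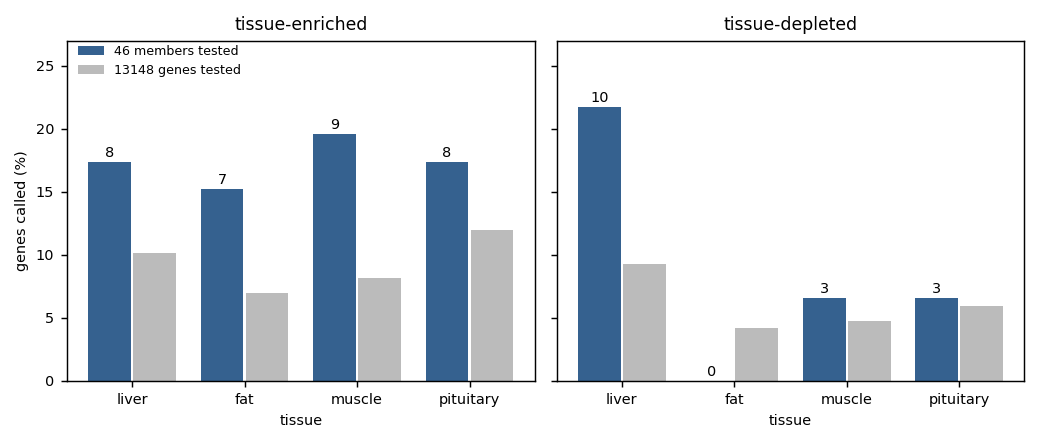
Share of genes enriched or depleted in each tissue, in percent, for the 46 tested transporter members and for all 13148 tested genes. The members' bar is above that of all genes in each class except depletion in fat, where no member was called.

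The liver differed from the other tissues more often by lower than by higher levels. It was lower than fat for 20 members (43.5%, against 26.2% of all genes) and higher for 9 (19.6%, against 21.2%). Against pituitary it was lower for 20 (43.5%, against 27.1%) and higher for 10 (21.7%, against 21.1%). Against muscle it was lower for 17 (37%, against 24.8%) and higher for 12 (26.1%, against 21.6%). Fat was higher than muscle for 13 members (28.3%, against 23.8%) and lower for 12 (26.1%, against 19.1%). Fat was lower than pituitary for 18 (39.1%, against 24.3%) and higher for 12 (26.1%, against 22.7%). Muscle was higher and lower than pituitary for 15 members each (32.6%, against 22.6% and 25.2%). With library sizes alone in place of TMM factors, muscle was higher than pituitary for 8 members and lower for 21, and fat was higher than muscle for 19 and lower for 7. The liver was then lower than fat for 24 members and higher for 7, and lower than pituitary for 27 and higher for 7. All genes shifted in the same way. Among all called genes, the share higher went from 47.3 to 20.3% for muscle against pituitary and from 55.5 to 81.3% for fat against muscle. It went from 44.8 to 23.7% for liver against fat and from 43.7 to 22.3% for liver against pituitary. The member counts for liver against muscle and for fat against pituitary did not change.

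The summed level of the 45 tested transporter genes followed another order. It was 2304 ± 674 CPM in liver, 2145 ± 1049 CPM in muscle, 858 ± 156 CPM in fat and 773 ± 58.0 CPM in pituitary. Few genes made up the liver sum: SLC38A4 took 35.8%, SLC6A11 22.4% and SLC38A3 15.2% of the transporter reads. In muscle the first 3 genes were SLC38A2 with 32.1%, SLC43A2 with 16.5% and SLC7A8 with 13%. In fat SLC38A2 took 20.7%, SLC1A5 13.7% and SLC1A3 12.8%. In pituitary the reads were spread more widely, with 15.0% for SLC38A2, 10.9% for SLC7A8 and 9.41% for SLC3A2. These shares are of reads and depend on transcript length.

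**Figure D2:**
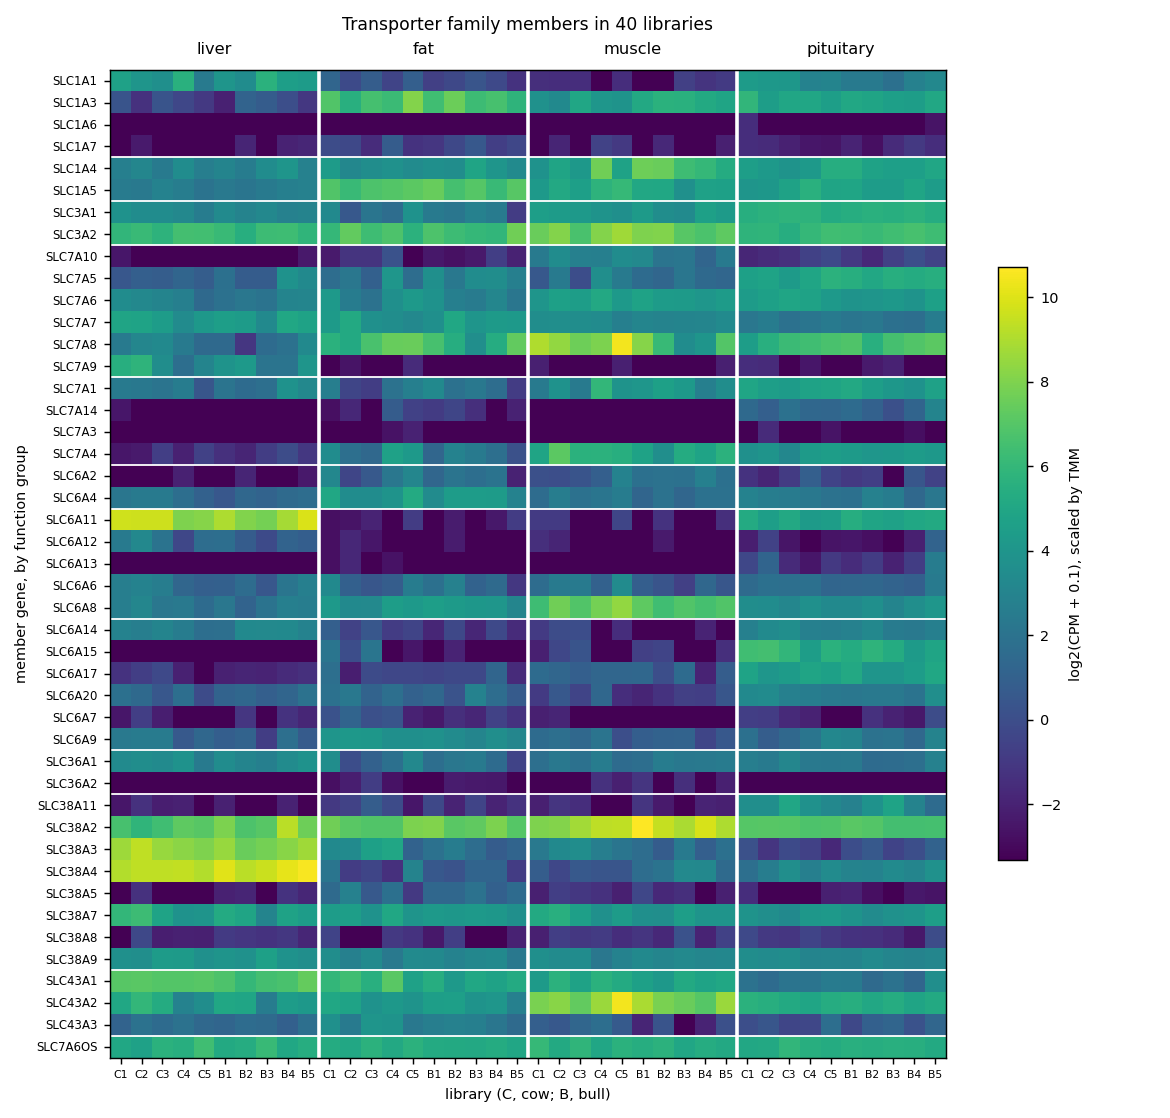
Level of the tested members in each of the 40 libraries, as log2(CPM + 0.1) on the colour scale, with member genes in rows by function group and libraries in columns by tissue and sex. Blocks of high level shift with the tissue, such as SLC38A4 in the 10 livers at 542 CPM or more and SLC6A15 in the 10 pituitaries at 19.97 CPM or more.

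Sodium-coupled glutamine and alanine transporters of the SLC38 family differed between tissues. SLC38A4, which carries neutral and some cationic amino acids and is known from liver, ranged from 542 to 1508 CPM in the livers with a median of 671. In fat it ranged from 0.290 to 7.56 CPM, in muscle from 0.692 to 9.78 and in pituitary from 3.41 to 13.8. Every liver library was thus above every other library, and the smallest of the 3 log2 fold changes was 6.53, against pituitary (FDR adjusted P-value 1.78e-15). SLC38A3, the system N glutamine transporter of hepatocytes, had a lowest, median and highest level of 183, 340 and 658 CPM in liver. Its highest level elsewhere was 31.2 CPM, in a fat library, and the pituitary was lowest at 0.877 ± 0.530 CPM. The liver exceeded fat by 5.41 on the log2 scale (FDR adjusted P-value 4.89e-14), and pituitary was below muscle by a log2 fold change of -2.33 (FDR adjusted P-value 1.41e-05).

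SLC38A2 encodes SNAT2, the widely expressed system A transporter whose transcript is known to rise when cells lack amino acids. Its level in muscle ran from 259 through a median of 568 to 1680 CPM. In fat it was 176 ± 59.3 CPM, in liver 184 ± 161 CPM and in pituitary 116 ± 17.2 CPM. Muscle was higher than fat by 1.83 on the log2 scale (FDR adjusted P-value 7.65e-07), whereas liver, fat and pituitary did not differ among themselves at the threshold. The muscle range overlapped those of fat and liver, where the liver of bull 4 reached 614 CPM. SLC38A4 and SLC38A2 are neighbours with no gene between them in the RefSeq annotation of ARS-UCD2.0, and they were enriched in different tissues.

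SLC38A11, an orphan transporter, was pituitary-enriched at 13.8 ± 8.95 CPM against 0.553 ± 0.458 in fat, a log2 fold change of 4.66 (FDR adjusted P-value 1.05e-12). SLC38A5, a system N transporter, was fat-enriched at 2.89 ± 1.83 CPM and at most 0.695 CPM in any library of another tissue. The lysosomal glutamine transporter SLC38A7 stood between 15.1 and 32.0 CPM on average in every tissue and was called only between liver and pituitary. SLC38A9, the lysosomal arginine sensor upstream of mTORC1, was at 16.0 ± 4.48 CPM in liver and between 8.52 and 9.35 CPM elsewhere. Its log2 differences of 0.77 to 0.91 had FDR adjusted P-values of 0.000318 or lower but stayed under the minimum of 1. The highest tissue mean of SLC38A8 was 0.436 CPM, in pituitary.

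Heavy and light chains did not share one pattern of tissues. SLC3A2, the 4F2 heavy chain, was muscle-enriched and had a lowest, median and highest level of 102, 215 and 425 CPM there. It stood at 98.9 ± 50.1 CPM in fat, 72.5 ± 17.3 CPM in pituitary and 70.3 ± 15.8 CPM in liver, and muscle was above fat by 1.13 on the log2 scale (FDR adjusted P-value 8.55e-05). SLC3A1, the rBAT heavy chain known from kidney and intestine, was pituitary-enriched. Its pituitary libraries lay between 37.6 and 55.0 CPM, above the highest other library at 24.7 CPM in muscle, and the log2 fold change over muscle was 1.41 (FDR adjusted P-value 3.35e-05).

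Among light chains, SLC7A8 (LAT2) and SLC7A10 (Asc-1) were muscle-enriched along with SLC3A2. SLC7A8 gave 323 ± 411 CPM in muscle, with single libraries from 11.1 to 1400 CPM around a median of 221. Fat at 90.5 ± 63.8 CPM and pituitary at 85.0 ± 37.8 CPM overlapped with muscle, and the log2 fold change over pituitary was 1.57 (FDR adjusted P-value 0.0115). In cows, muscle at 195 to 1400 CPM lay above fat at 36.5 to 185 CPM and pituitary at 22.4 to 101 CPM. In bulls, muscle at 11.1 to 284 CPM overlapped with fat at 12.4 to 162 CPM and pituitary at 46.0 to 143 CPM. The livers were lowest at 5.20 ± 3.37 CPM, with a log2 fold change of -4.11 against fat (FDR adjusted P-value 6.27e-08). SLC7A10, an exchanger of small neutral amino acids that is known as a surface marker of white fat cells in mouse and human, was at 0.270 ± 0.314 CPM in fat. In muscle it lay between 2.32 and 11.3 CPM, above every library of the other tissues. The read ratio of muscle over liver was 303 with an exact 95% interval of 83.5 to 2511, from 2 reads in all the livers.

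SLC7A5 (LAT1), which takes up large neutral amino acids, was pituitary-enriched. Its pituitary levels spanned 19.6 to 51.4 CPM with a median of 36.7, and no other library exceeded 16.7 CPM. It was higher than fat by 2.25 on the log2 scale (FDR adjusted P-value 7.71e-06). SLC3A2, its partner, did not share this pattern, since pituitary and liver differed by a log2 fold change of only 0.04 (FDR adjusted P-value 0.895).

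SLC7A9, the light chain that pairs with SLC3A1 in cystine uptake, was confined in the main to liver. Its liver levels ran from 3.23 to 55.7 CPM with a median of 13.3, while the highest level elsewhere was 0.252 CPM. The read ratio over muscle was 487 (exact 95% interval 166 to 2365). Thus SLC7A9 was highest in liver and SLC3A1 in pituitary, where SLC7A9 had 13 reads in all 10 libraries. SLC7A7, a y+LAT chain that releases cationic amino acids and is known from macrophages and kidney, was highest in liver and fat at 22.1 ± 7.63 and 19.1 ± 9.27 CPM. It was pituitary-depleted at 4.53 ± 0.931 CPM with a log2 fold change of -1.08 against muscle (FDR adjusted P-value 7.2e-05), and this call was lost, at -0.96, without the 2 libraries that stood apart. Macrophage markers summed to 724 to 1876 CPM in liver, 388 to 1311 in fat, 58.2 to 359 in muscle and 68.1 to 245 in pituitary. In the livers of cows 1 to 5 the sums were 724, 879, 1067, 1876 and 1419 CPM. SLC7A7 was at 29.2, 28.0, 21.9, 10.8 and 17.9 CPM in these livers. In the livers of bulls 1 to 5 the sums were 1324, 1256, 1753, 1214 and 1513 CPM. SLC7A7 was at 23.2, 20.6, 9.99, 33.2 and 26.6 CPM in these. Of the 5 markers 2 were higher in liver than in each other tissue, and their part in the result was not tested.

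SLC7A6, the other y+LAT chain, stood at 22.3 ± 5.73 CPM in muscle and 21.2 ± 5.73 CPM in pituitary, and both were above liver and fat. It shares its locus with SLC7A6OS, which was at 39.7 to 46.1 CPM in the mean of each tissue and was called in no tissue contrast. Whether strand was used in counting was not stated, so reads of the pair cannot be told apart with certainty.

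**Figure D3:**
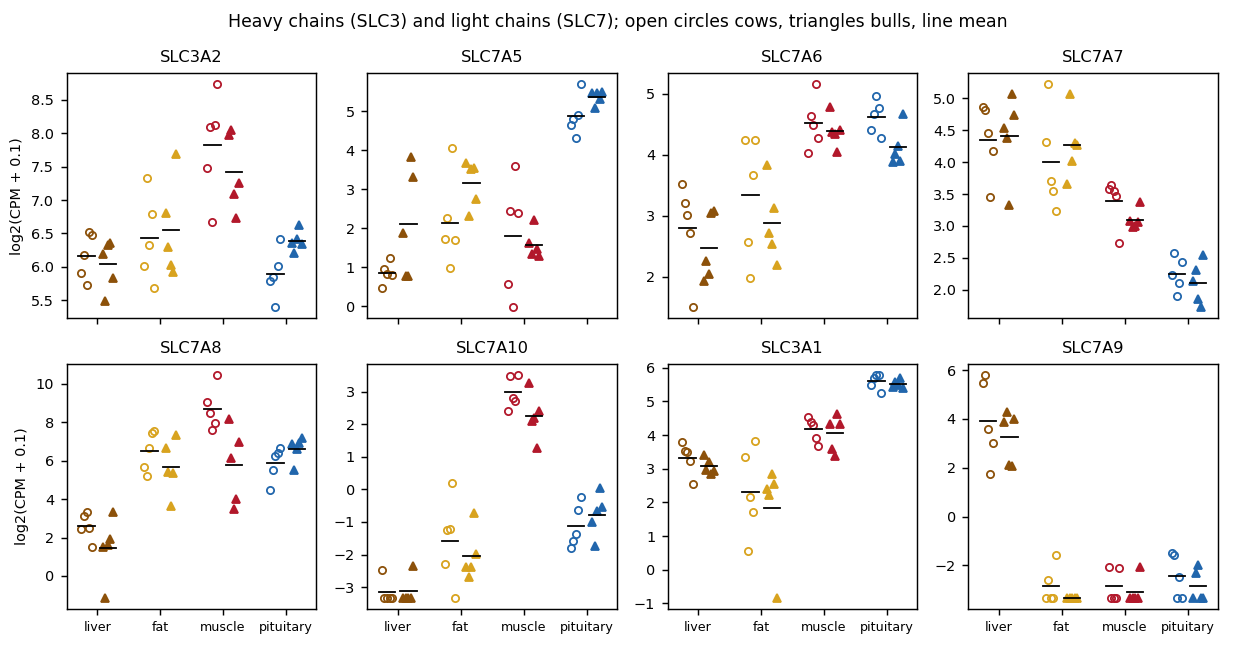
Levels of the 2 heavy chains and 6 light chains by tissue, as log2(CPM + 0.1) on the vertical axis. Each point is a library (open circles cows, filled triangles bulls) and each line the mean of 5. SLC3A2 and SLC7A10 are highest in muscle, SLC3A1 and SLC7A5 in pituitary, and SLC7A9 in liver. SLC7A8 is highest in muscle in cows, while in bulls its muscle and pituitary points overlap.

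Facilitative transporters of the SLC43 family were each enriched in a different tissue. SLC43A1 (LAT3) was liver-enriched at 120 ± 29.8 CPM, with livers between 64.1 and 170 CPM. It fell to 51.9 ± 35.7 CPM in fat, 32.8 ± 11.8 CPM in muscle and 4.69 ± 2.81 CPM in pituitary, where it was depleted with a log2 fold change of -2.76 against muscle (FDR adjusted P-value 4.41e-11). SLC43A2 (LAT4) was muscle-enriched, with levels from 129 to 1434 CPM around a median of 268. The highest level elsewhere was 62.2 CPM, so that the 10 muscle libraries did not overlap with the others, and the log2 fold change over pituitary was 3.30 (FDR adjusted P-value 1.25e-10). SLC43A3, which is known to carry purine nucleobases rather than amino acids, was fat-enriched at 8.12 ± 4.66 CPM. It lies near SLC43A1 with 1 gene between them.

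Cationic SLC7 members and their relatives differed between tissues. SLC7A1 (CAT1), the widespread arginine and lysine transporter, was at 24.7 ± 6.31 CPM in pituitary and 18.1 ± 16.6 CPM in muscle. Both exceeded liver at 5.53 ± 3.74 CPM and fat at 4.0 ± 3.10 CPM, and pituitary and muscle did not differ at the threshold (FDR adjusted P-value 0.358). SLC7A4, a relative whose substrates are not settled, was muscle-enriched at 48.0 ± 36.0 CPM and liver-depleted at 0.357 ± 0.248 CPM. SLC7A14, found in lysosomes of neural tissue, was pituitary-enriched at 2.90 ± 1.91 CPM. Muscle had no read of it, which makes the pituitary at least 70.0-fold higher when set against 3 reads over the muscle libraries. SLC7A3 had 9 reads in all.

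In the SLC1 family, glutamate and neutral carriers differed by tissue. SLC1A3 (GLAST), a glutamate and aspartate transporter of glia and other cells, was fat-enriched with a lowest, median and highest level of 46.8, 90.6 and 278 CPM. It was at 31.2 ± 11.4 CPM in pituitary, 28.4 ± 14.3 CPM in muscle and 0.892 ± 0.638 CPM in liver, and the liver libraries lay below all others. The log2 fold change of fat over pituitary was 1.85 (FDR adjusted P-value 1.57e-06). Glial markers were also summed: 328 to 1135 CPM in fat, 86.9 to 299 in muscle, 78.9 to 211 in pituitary and 14.5 to 27.1 in liver, with 1 of 7 markers higher in fat than in each other tissue. That marker was S100B, which made up most of the sum in fat with 299.6 to 1120 CPM, whereas the astrocyte markers GFAP and AQP4 reached at most 1.77 and 0.772 CPM in fat and up to 55.2 and 41.4 CPM in pituitary. The part of these markers in the SLC1A3 levels was not tested.

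SLC1A1, the glutamate transporter that also takes up cysteine, went the other way. It was liver-enriched at 22.7 ± 14.8 CPM, followed by pituitary at 10.1 ± 6.11 CPM, fat at 1.07 ± 0.649 CPM and muscle at 0.233 ± 0.182 CPM. The log2 fold change of liver over pituitary was 1.30 (FDR adjusted P-value 0.00116), and it dropped to 0.96, under the minimum, without the animal labelled bull 3. Without the 2 libraries that stood apart, liver was above the nearest tissue by 1.04 (FDR adjusted P-value 0.00422 in the quasi-likelihood F test), and the call was kept. SLC1A5 (ASCT2), a glutamine exchanger, was fat-enriched, and its fat libraries from 72.9 to 174 CPM lay above every other library. Liver was lowest at 5.64 ± 1.15 CPM. SLC1A4 (ASCT1), which exchanges alanine, serine and cysteine, was muscle-enriched at 86 ± 78.3 CPM, and its muscle libraries from 14.1 to 205 CPM overlapped with those of pituitary. SLC1A7 reached 0.743 ± 0.451 CPM in fat, where it was enriched, and SLC1A6 had 5 reads, all in pituitary.

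Fat libraries also held the highest summed fibroblast markers at 8678 to 45472 CPM, against at most 9275 CPM elsewhere. Endothelial markers summed to 1287 to 2482 CPM in fat, against at most 911 CPM elsewhere. Of the 5 fibroblast markers 4, and of the 5 endothelial markers 3, were higher in fat than in each other tissue. Their part in the 7 fat-enriched members was not tested.

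SLC6 carriers of GABA, betaine and creatine were highest in different tissues. SLC6A11 (GAT3), a GABA transporter known from astrocytes and also from liver, had a lowest, median and highest level of 219, 479 and 951 CPM in liver. In pituitary it lay between 20.2 and 42.3 CPM, and in fat and muscle no library exceeded 0.657 CPM. Liver, pituitary and the other two tissues did not overlap, and liver exceeded pituitary by 4.12 on the log2 scale (FDR adjusted P-value 5.81e-14). SLC6A12, the betaine and GABA transporter, was liver-enriched at 3.19 ± 2.57 CPM. SLC6A13 (GAT2) had 171 reads in pituitary and none in liver or muscle, and pituitary was at least 31.4-fold higher than liver and at least 26.6-fold higher than muscle. The pituitary of bull 5 held 88 of these reads, and without it the bounds were 16.9-fold and 14.3-fold.

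SLC6A8, which brings creatine into muscle and brain, had a lowest, median and highest level of 80.6, 118 and 345 CPM in muscle. Every muscle library was above the highest other library at 23.6 CPM, and the log2 fold change over fat was 3.18 (FDR adjusted P-value 2.04e-14). It was depleted in liver, an organ that makes creatine, at 5.10 ± 1.90 CPM. The taurine transporter SLC6A6 had means of 2.97 to 4.08 CPM in the 4 tissues and was called in no tissue contrast. SLC6A12 and SLC6A13 are neighbours with no gene between them in ARS-UCD2.0, and they were enriched in different tissues.

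Among the SLC6 carriers of amino acids, SLC6A15, SLC6A17 and SLC6A20 were pituitary-enriched. SLC6A15, a sodium-coupled transporter of branched-chain amino acids and proline known from neurons, had a lowest, median and highest level of 19.97, 44.7 and 93.1 CPM there. Fat reached 4.33 CPM at most and muscle 1.14 CPM, and the 10 livers had no read. With 3 reads over the livers as the floor, pituitary was at least 1424-fold higher than liver. SLC6A17, a vesicular neutral amino acid transporter of neurons, was at 24.0 ± 6.99 CPM in pituitary and at most 3.35 CPM in other libraries, with a log2 fold change over muscle of 3.64 (FDR adjusted P-value 4.06e-11). SLC6A20, a proline transporter, was pituitary-enriched at 6.97 ± 2.93 CPM and muscle-depleted at 0.797 ± 0.725 CPM. The neuron markers given above were higher in pituitary too, and their part in these results was not tested.

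SLC6A14, a broad carrier of neutral and cationic amino acids, stood at 7.61 ± 2.23 CPM in pituitary and 7.11 ± 2.46 CPM in liver. Both were above fat at 0.687 ± 0.519 CPM and muscle at 0.260 ± 0.355 CPM. The muscle-depleted call against fat (log2 fold change -1.27, FDR adjusted P-value 0.0194) was lost without cow 1 (FDR adjusted P-value 0.0756) or bull 2 (0.0552). The glycine transporter SLC6A9 was fat-enriched at 13 ± 3.28 CPM, with a log2 fold change of 1.39 over pituitary (FDR adjusted P-value 0.000133). SLC6A7, a proline transporter, had its highest mean, 0.71 CPM, in fat.

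Of the monoamine carriers of the SLC6 family, SLC6A4 was fat-enriched. This serotonin transporter had a lowest, median and highest level of 7.34, 17.6 and 38.6 CPM in fat, and the highest level elsewhere was 7.32 CPM. Its log2 fold change over pituitary was 1.87 (FDR adjusted P-value 2.31e-08). SLC6A2, the noradrenaline transporter of sympathetic nerve endings, was at 3.82 ± 3.01 CPM in fat and 3.37 ± 2.31 CPM in muscle, which did not differ at the threshold (FDR adjusted P-value 0.774). The livers held 3 reads in all, and the read ratio of fat over liver was 117 with an exact 95% interval of 39.9 to 570. In the SLC36 family, the lysosomal proton-coupled transporter SLC36A1 was liver-enriched at 10.3 ± 2.93 CPM with log2 fold changes of 1.02 to 1.24, and SLC36A2 had 21 reads in all, in fat and muscle.

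In 14 members (30.4%, against 19.3% of all genes) each of the 10 libraries of a tissue was above each of the 30 others. These were SLC38A3, SLC38A4, SLC6A11 and SLC7A9 in liver, SLC1A5 and SLC6A4 in fat, and SLC43A2, SLC6A8 and SLC7A10 in muscle. In pituitary they were SLC38A11, SLC3A1, SLC6A15, SLC6A17 and SLC7A5. The 11 members in neither class were SLC1A6, SLC36A2, SLC38A7, SLC38A8, SLC38A9, SLC6A6, SLC6A7, SLC7A1, SLC7A3, SLC7A6 and SLC7A6OS.

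Animals differed widely within a tissue. Among members with a mean of at least 1 CPM, the median coefficient of variation was 60.6% in fat, 52.2% in muscle, 39.8% in liver and 32.0% in pituitary. The same measure over all genes at that level was 45.8%, 35.8%, 32.9% and 25.4%. The highest among members were SLC6A13 in pituitary at 164%, SLC7A8 in muscle at 127%, SLC7A5 in liver at 112% and SLC38A4 in fat at 111%. The lowest in pituitary was SLC3A1 at 12.4%. Without the libraries that stood apart, the median was 58.4% in fat and 40.6% in liver.

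Genes that respond to amino acid supply were set beside the transporters. ATF4 is the transcription factor that is translated when amino acids run short, and 21 of 23 listed genes of its response were tested. ATF4 itself was muscle-enriched at 2347 ± 521 CPM and pituitary-depleted at 290 ± 71.6 CPM. The transcription factor ATF3 was muscle-enriched at 789 ± 1046 CPM, but ASNS, TRIB3 and PHGDH were muscle-depleted. In liver TRIB3, the serine synthesis enzyme PSAT1 and the cysteine synthesis enzyme CTH were enriched, in fat PSPH, and in pituitary CHAC1, SESN2, ALDH18A1 and PYCR1. EIF4EBP1 and NUPR1 were pituitary-depleted with ATF4.

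Of 31 genes of amino acid sensing by mTORC1, 23 were tested. RRAGD, a Rag GTPase, was muscle-enriched at 134 ± 32.9 CPM, as was the sestrin SESN1 at 114 ± 51.4 CPM. GATSL3, an arginine sensor of the CASTOR family, was liver-enriched at 124 ± 63.8 CPM and pituitary-depleted, RRAGB and SESN2 were pituitary-enriched, LAMTOR4 was fat-enriched, and SESN1 was liver-depleted. Of 13 other amino acid and peptide transporters, 10 were tested. The vesicular glutamate transporters SLC17A7 and SLC17A6 were pituitary-enriched at 6.18 ± 2.13 and 1.5 ± 0.777 CPM, and the peptide transporter SLC15A2 was liver-enriched. SLC16A10, an aromatic amino acid carrier, was fat-depleted at 0.147 ± 0.0946 CPM, and the peptide transporter SLC15A1 was muscle-depleted.

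Sex was compared within each tissue with a likelihood ratio test in edgeR (M1, 5 cows against 5 bulls) and over all tissues with tissue as a second factor (M2). Log2 fold changes are from male to female, positive where males were higher. In M1, 1 of the 46 members was a DEG, in muscle (2.17%, against 0.517% of all genes). No member was a DEG in liver (0.175% of all genes), fat (0.114%) or pituitary (0.745%). At an unadjusted P-value below 0.05 there were 11 members in muscle (23.9%, against 11%), 8 in fat (17.4%, against 6.88%), 5 in pituitary (10.9%, against 9.27%) and 5 in liver (10.9%, against 7.45%). Those higher in males were 3 in muscle (3.27% of all genes), 3 in liver (2.99%), 2 in pituitary (4.28%) and 0 in fat (2.55%). Those higher in females were 8 in muscle (7.72%), 8 in fat (4.34%), 3 in pituitary (4.99%) and 2 in liver (4.46%). The quasi-likelihood test called none in any tissue. DESeq2 called 3 in muscle (89 of all genes), 1 in pituitary (136 of all genes) and none in liver or fat.

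The DEG was SLC38A4 in muscle, where it is low. The cows had 1.66, 0.692, 1.40, 1.18 and 1.18 CPM, and the bulls 3.13, 3.99, 9.78, 9.44 and 2.76 CPM. Every bull was above every cow. The means were 1.22 ± 0.354 CPM (n = 5) in cows and 5.82 ± 3.49 CPM (n = 5) in bulls, a log2 fold change of 2.25 (SE 0.498, FDR adjusted P-value 0.00537 in the likelihood ratio test).

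The SLC38A4 result rested on 218 reads over the 10 muscle libraries. Its FDR adjusted P-value was 0.0586 without the muscle of bull 3 and 0.192 in the quasi-likelihood test. Hepatocyte markers, of which all 6 were measured, summed to 36.0 to 148 CPM in the cow muscles and 14.0 to 104 CPM in the bull muscles, and their part in the result was not tested. In liver, SLC38A4 was at 542, 657, 662, 681 and 549 CPM in cows and at 1067, 608, 759, 1167 and 1508 CPM in bulls. These liver groups overlapped, and the log2 fold change of 0.74 (SE 0.294) had an FDR adjusted P-value of 0.448. Without the liver library labelled bull 3 the log2 fold change was 0.81 (FDR adjusted P-value 0.38).

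Besides SLC38A4, 1 more member had cows and bulls that did not overlap in muscle (2 members, 4.35%, against 1.65% of all genes). SLC43A3 was at 1.79, 1.38, 2.41, 3.25 and 1.45 CPM in cow muscle and at 0.174, 1.15, 0, 0.166 and 0.967 CPM in bull muscle. The log2 fold change was -1.87 (SE 0.621) with an FDR adjusted P-value of 0.124. In liver, fat and pituitary no member had groups without overlap (0.548%, 1.29% and 1.34% of all genes), and none had in liver without bull 3 (1.33%) or in fat without bull 5 (2.34%).

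Several members in muscle were near the threshold. SLC1A3 was at 17.2 ± 8.04 CPM in cows and 39.6 ± 8.78 CPM in bulls (log2 fold change 1.21, SE 0.329, FDR adjusted P-value 0.0546). SLC6A6 was at 5.35 ± 3.47 CPM in cows and 1.43 ± 0.730 CPM in bulls (log2 fold change -1.86, SE 0.517, FDR adjusted P-value 0.0549). DESeq2 gave 0.0405 and 0.0429 for these genes. SLC7A8 was at 531, 350, 195, 246 and 1400 CPM in cows and at 284, 70.4, 11.1, 16.1 and 126 CPM in bulls. Only the highest bull overlapped with the cows, and the log2 fold change of -2.40 (SE 0.708) had an FDR adjusted P-value of 0.103. Adipocyte markers in muscle, of which 5 of 6 were measured, summed to 799 CPM in cow 5 and 42.1 to 279 CPM in the other muscles, and their part in the SLC7A8 levels was not tested.

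Leaving out a single animal changed the M1 muscle count. Without cow 4, 7 members were called, while the DEGs over all genes rose from 68 to 553. SLC7A8 was then at an FDR adjusted P-value of 0.0191, SLC1A3 at 0.0265 and SLC6A6 at 0.0017 in the likelihood ratio test. Without cow 3, cow 5 or bull 1 there were 2 members (38, 131 and 47 of all genes), and without bull 3 there was none (25 of all genes). SLC1A3 was at 0.000525 without cow 3, and SLC7A8 at 0.00751 without bull 1.

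In fat all 8 members at an unadjusted P-value below 0.05 were higher in females (17.4%, against 4.34% of all genes). Among them SLC6A13 and SLC7A9 had only 5 and 4 reads in fat, none of them in bulls. The median log2 fold change of the 46 members in fat was -0.521, and that of all genes -0.0584. Without the fat of bull 5, 7 members were at an unadjusted P-value below 0.05 (15.2%, against 7.93% of all genes). Each was higher in females (5.7% of all genes), and the medians were -0.434 and -0.0901. SLC38A3 was at 10.2, 10.4, 25.2, 31.2 and 2.05 CPM in cow fat and at 3.71, 5.92, 3.11, 1.60 and 2.16 CPM in bull fat. Cow 5 lay within the range of the bulls, and the log2 fold change of -2.29 (SE 0.619) had an FDR adjusted P-value of 0.211. It was 0.00233 without cow 5 and 0.238 without the fat of bull 5. Hepatocyte markers in fat summed to 51.0 to 252 CPM in cows and 47.5 to 476 CPM in bulls, and their part in the result was not tested.

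SLC6A15 in fat was at 4.33, 0.910, 4.26, 0 and 0.0787 CPM in cows, and bull 2 alone among the bulls had reads, at 0.166 CPM. The log2 fold change was -5.35 (SE 1.54), with an FDR adjusted P-value of 0.234 that became 0.00958 without cow 4 and 0.22 without the fat of bull 5. SLC43A1 was at 71.5 ± 42.6 CPM in cow fat and 32.2 ± 9.63 CPM in bull fat (log2 fold change -1.17, SE 0.438, FDR adjusted P-value 0.493, or 0.422 without the fat of bull 5). SLC7A4 was at 12.5 ± 10.1 and 3.88 ± 2.53 CPM (log2 fold change -1.70, SE 0.666, FDR adjusted P-value 0.565, or 0.572 without that library).

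In liver SLC7A5 had the smallest P-value. Cows were at 1.29, 1.84, 1.67, 2.25 and 1.64 CPM and bulls at 3.58, 1.61, 1.61, 14.2 and 9.91 CPM. Bulls 1, 4 and 5 were above all cows, and the log2 fold change was 1.84 (SE 0.556, FDR adjusted P-value 0.175). Without the liver library labelled bull 3 it was 2.08, with an FDR adjusted P-value of 0.0267. SLC38A2 was at 106 ± 37.3 CPM in cow liver and 261 ± 205 CPM in bull liver (log2 fold change 1.30, SE 0.430, FDR adjusted P-value 0.249), and the FDR adjusted P-value was 0.123 without that library. Without it 3 members were at an unadjusted P-value below 0.05, a share of 6.52% that was near the 6.58% of all genes. They were SLC7A5, SLC38A2 and SLC38A4, each higher in males (3.07% of all genes).

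In pituitary SLC1A1 came closest to the threshold. Cows were at 21.0, 17.8, 17, 7.33 and 7.86 CPM and bulls at 5.17, 5.45, 3.59, 7.18 and 9.13 CPM. Cows 4 and 5 lay within the range of the bulls, and the log2 fold change was -1.21 (SE 0.337, FDR adjusted P-value 0.0502). DESeq2 gave 0.0344. The FDR adjusted P-value in the likelihood ratio test was 0.0116 without cow 4, 0.00677 without cow 5 and 0.0173 without bull 5. SLC6A15 was at 61.9 ± 28.2 CPM in cow pituitary and 36.7 ± 13.2 CPM in bull pituitary (log2 fold change -0.74, SE 0.339, FDR adjusted P-value 0.462).

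**Figure D4:**
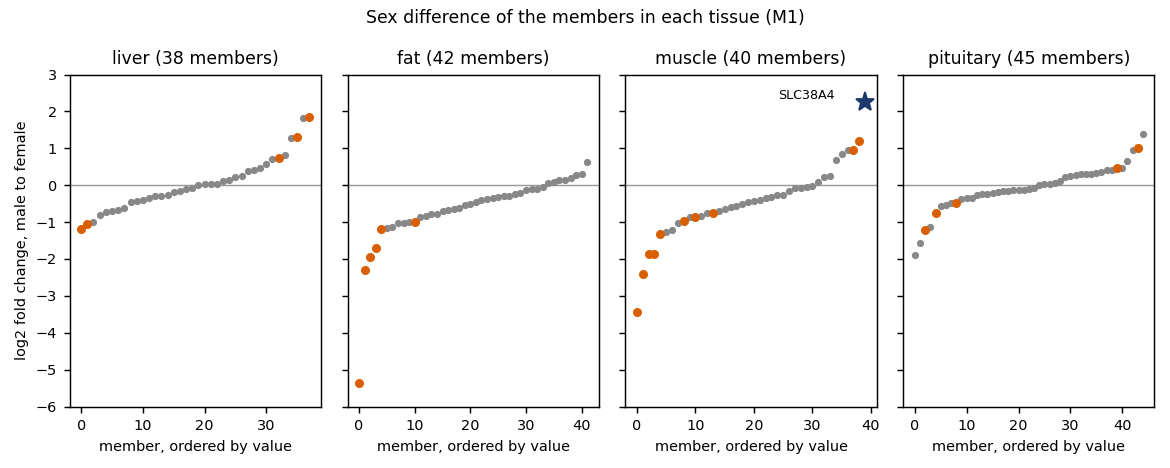
Log2 fold change between the sexes (M1, positive where males were higher) of each member in each tissue, 1 point a member in order of value, leaving out members with 3 reads or fewer in the tissue or no read in 1 sex. Orange points have an unadjusted P-value below 0.05. Points in fat and muscle lie mostly below 0, and the star is SLC38A4 in muscle at 2.25.

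In M2 no member was a DEG (1.69% of all genes), and the quasi-likelihood test and DESeq2 also gave none (77 and 263 of all genes). The study lists SLC6A15 as significant in its own M2, and here it was not called. At an unadjusted P-value below 0.05 there were 16 members (34.8%, against 16.7%), of which 14 were higher in females (30.4%, against 11%). Those higher in males were SLC38A2 and SLC1A4 (4.35%, against 5.7%). The smallest FDR adjusted P-values were 0.112 for SLC38A2 (log2 fold change 0.57, SE 0.199), 0.129 for SLC38A3 (-0.80, SE 0.279) and 0.146 for SLC6A15 (-1.73, SE 0.622). The median log2 fold change of the members was -0.303, and that of all genes -0.0447. Without cow 4 or cow 5, 3 members were called (686 and 714 of all genes), and without bull 5, 2 (459 of all genes, against 222 with all animals). Without the 2 libraries that stood apart no member was called, and 16 were at an unadjusted P-value below 0.05 (34.8%, against 14.5% of all genes). Of these, 12 were higher in females (10.3% of all genes), and the medians were -0.222 and -0.055.

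An interaction term between sex and tissue asked whether the sex difference itself changed from tissue to tissue. With the quasi-likelihood F test no member and none of the 13148 genes was called (0%), whereas the likelihood ratio test called 1 member, SLC38A3. At an unadjusted P-value below 0.05 there were 11 members (23.9%, against 7.01% of all genes). Without the 2 libraries that stood apart these were 10 (21.7%, against 8.36% of all genes), and 8 genes, none of them a member, were called. SLC38A3 had the smallest P-value among members, 0.000312 (FDR adjusted P-value 0.189 in the quasi-likelihood test, 0.0157 in the likelihood ratio test, and up to 0.572 without a single animal). Its M1 log2 fold change was -2.29 in fat, -1.31 in muscle and -0.40 in liver. In pituitary, where it is lowest, cows had 0.582 ± 0.326 CPM and bulls 1.17 ± 0.556 CPM, a log2 fold change of 1.004. SLC6A14 (FDR adjusted P-value 0.399) and SLC38A4 (0.441) followed in the quasi-likelihood test.

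**Figure D5:**
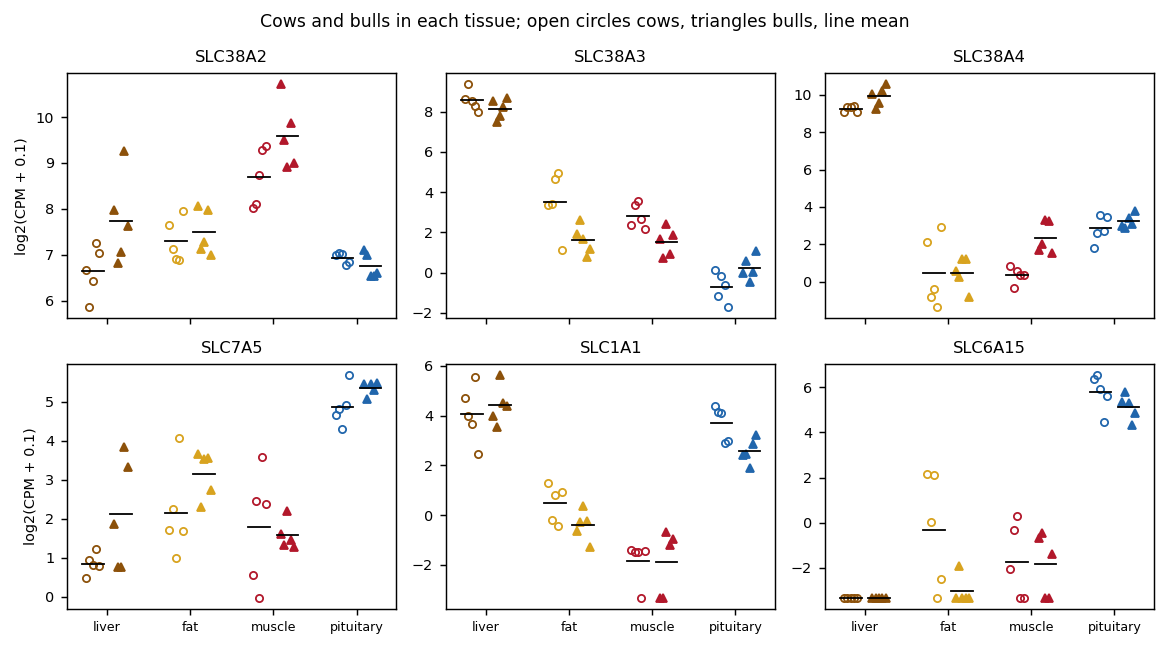
Levels of SLC38A2, SLC38A3, SLC38A4, SLC7A5, SLC1A1 and SLC6A15 in cows (open circles) and bulls (filled triangles) by tissue, as log2(CPM + 0.1) on the vertical axis. Each point is a library and each line the mean of 5. For SLC38A4 in muscle the 5 bulls, from 2.76 to 9.78 CPM, lie above the 5 cows, from 0.692 to 1.66 CPM.

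None of the lists of related genes had a DEG in M1. In M2 the ATF4 response had 1, GARS (log2 fold change 0.44, SE 0.127, FDR adjusted P-value 0.0403), which encodes the glycyl-tRNA synthetase. The mTORC1 list and the other transporters had none by the likelihood ratio test.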

How the data were processed

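RNA of 40 samples (4 tissues of 5 cows and 5 bulls) was sequenced with poly-A selected, paired-end libraries. Reads were cleaned by the authors in Trimmomatic, mapped on bosTau7 (UCSC) with Bowtie2 inside TopHat2, and passed through SAMtools. The authors deposited raw counts of uniquely aligned reads per gene symbol made with HTSeq. The strand setting is not given in the sources used here. Reads that match several copies of a gene are not counted, so near-identical copies may be understated. Groups came from the sex and tissue labels, and animals from the sample titles. A row without a gene name, with 0.114 to 2.69% of the reads on genes, was left out. Reads counted outside genes were 33.2 to 54.0% of the reads in the files. Depth was 5173092 to 19165864 reads on genes, and intervals and floors cover counting error only.

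All 13148 genes with at least 1 read were fitted in edgeR 4.0.16 (R 4.3.3) with TMM factors and Benjamini-Hochberg adjustment. Tissue contrasts used the quasi-likelihood F test with tissue and sex as factors on 40 samples. M1 used the likelihood ratio test on the 10 samples of a tissue, M2 the same test with sex and tissue on 40 samples, and the interaction the quasi-likelihood F test of 3 terms. P-values of M1 measure the spread between animals. The tissue contrasts, M2 and the interaction were fitted on 40 samples without an animal term. Their P-values treat the tissues of an animal as independent. Fitted log2 fold changes used a prior count of 0.125. Folds against a tissue without reads were computed against 3 reads over its 10 libraries, and ratios with 1 to 3 reads have an exact interval at a confidence level of 95%. The scripts were tested on simulated data.

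The same-animal samples of different tissues pair by label. Deviations from the group means correlated at 0.169 on average over 60 same-animal pairs (range -0.45 to 0.56, 38 above 0.1) and at -0.0421 over 240 pairs of different animals.

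The named members, 34 by rule, were up to 6 enriched and 3 depleted members per tissue in order of the smallest log2 difference (enriched ones with a mean of at least 1 CPM), those called by sex or with the smallest M1 P-value of a tissue, the heavy and light chains, SLC6A15, and the highest member of each function group. A member that is not reported here is counted in the totals but not named. Other members are named to complete their families, after their values were seen. Members and gene lists were chosen with earlier results of these data known. Alternatives were other scaling factors, a filter on low counts (filterByExpr), DESeq2 1.42.0, other edgeR tests, voom with limma 3.58.1 and the animal as a block, and leaving out samples; the bound for SLC6A13 without the pituitary of bull 5 and the unadjusted counts, medians and spread without the libraries that stood apart were added after seeing the data. Neighbouring genes were read from the RefSeq table of ARS-UCD2.0, and no coordinates were taken from it. Figures were drawn with matplotlib 3.10.9.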

Additional observations from a re-analysis of the deposited data

Results flagged for a closer look

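In 17 of 196 groups of 5 animals tested, 1 animal lay far from the other 4, with a gap of more than 0.71 of the group's range. Chance flags about 5% of such groups where values follow a normal distribution. CPM was used without a log transform and several flags share a library, so this rate is only a rough guide here.

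The pituitary of bull 5 was far above the other bulls for 4 members: SLC6A13 at 5.74 CPM (others 0.153 to 0.485), SLC7A14 at 7.96 CPM (0.993 to 2.91), SLC6A20 at 11.9 CPM (3.92 to 5.09) and SLC7A6 at 25.4 CPM (14.5 to 17.6). The same library had summed fibroblast markers of 1583 CPM and macrophage markers of 245 CPM, the highest of the 10 pituitaries in both lists. Its hormone genes differed too. POMC was at 58536 CPM (other bulls 7820 to 30940.5), PRL at 67047 CPM (159945 to 214481) and CGA at 1465 CPM (6657 to 14537). The chi-square of its nearest pair was 120 per degree of freedom, against 24.1 to 55.3 in the other pituitaries. The part of the cell make-up in these levels was not tested.

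The muscle of cow 5 was far above the other cows for SLC43A2 at 1434 CPM (164 to 384) and SLC7A8 at 1400 CPM (195 to 531), and below them for SLC7A7 at 6.57 CPM (10.9 to 12.4). Its summed adipocyte markers were 799 CPM, against 42.1 to 279 in the other muscles, and their part was not tested.

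The remaining 10 were single. In muscle, SLC1A4 stood at 205 CPM in cow 4 (other cows 14.1 to 29.4) and SLC7A4 at 144 CPM in cow 2 (29.2 to 51.7). In bull muscle, SLC7A5 was at 4.5 CPM in bull 3 (2.35 to 2.95) and SLC7A7 at 10.2 CPM in bull 5 (7.77 to 8.34). In pituitary, cow 1 had 60.5 CPM of SLC1A3 (22.1 to 31.9), cow 3 had 31.1 CPM of SLC38A11 (9.23 to 13.7) and cow 5 had 3.21 CPM of SLC43A3 (0.652 to 1.24). In fat, SLC6A17 was at 3.35 CPM in cow 1 (0.130 to 0.819) and SLC7A5 at 16.7 CPM in cow 4 (1.88 to 4.68). In liver, SLC38A2 was at 614 CPM in bull 4 (113 to 250).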

How the results depend on the processing

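No called log2 fold change changed sign under an alternative, while 12 values of members not called in M1 did. Leaving out a replicate took the log2 fold change of SLC1A1 to between -0.24 and 0.76 in liver and -0.27 and 0.50 in muscle. In fat it took SLC38A4 to between -1.12 and 0.066, SLC1A3 to between -0.62 and 0.25 and SLC6A6 to between -0.90 and 0.22. SLC6A15 in muscle lay between -0.89 and 0.38 and SLC1A3 in pituitary between -0.35 and 0.083; with library sizes alone SLC1A1 in muscle was at -0.024. Of the counts of members called, 340 values under alternatives stayed within 1.5 times of the reported count and 24 moved beyond it; of the named members, 1196 kept their sign and side of the threshold, 22 gained a call and 15 lost one. With library sizes alone in place of TMM factors, 5 members were liver-enriched, 3 muscle-enriched and 1 a DEG in M2 (SLC38A3); SLC1A1 in liver (0.40), SLC38A2 (0.95) and SLC1A4 (0.54) in muscle lost their calls. That scaling moved the median log2 difference of all genes to -0.819 for liver against fat, -0.919 for liver against pituitary, 0.859 for fat against muscle and -0.888 for muscle against pituitary. The share of higher calls among all genes then went from 44.8 to 23.7%, 43.7 to 22.3%, 55.5 to 81.3% and 47.3 to 20.3% for these contrasts, from 19.8 to 5.16% for males in M2 (717 DEGs against 222) and from 74.5 to 57.1% in M1 pituitary (56 against 98). Without a minimum log2 difference 1 member was fat-depleted. In M1 muscle the quasi-likelihood test called 0 members, DESeq2 3 and filterByExpr 2; DESeq2 called 1 in M1 pituitary, and the likelihood ratio test 1 in the interaction. The pituitary depletion of SLC7A7 fell short of the minimum under RLE factors, filterByExpr and DESeq2, at -0.964 to -0.998, with library sizes alone (-0.16) and without bull 5 (-0.99). Leaving out a replicate gave 0 to 2 fat-depleted members, and 0 to 1 in M1 liver, 0 to 1 in M1 fat, 0 to 7 in M1 muscle, 0 to 1 in M1 pituitary and 0 to 3 in M2. Enriched members numbered 30 to 32 and depleted ones 15 to 19, and the cause was not tested. Shares of all genes enriched or depleted are not given for the alternatives, the animal block included. Changes in these counts are therefore not read as changes of the members alone. Over all genes the quasi-likelihood test gave 1, 3, 7 and 12 DEGs in M1 liver, fat, muscle and pituitary, against 23, 15, 68 and 98.

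With the animal as a replicate block, 33 members were enriched and 17 depleted, 0 were called in M2 (voom, consensus correlation 0.104) and 0 in the interaction, and the block changed no call of a named member. Over all genes, M2 gave 8 DEGs with the block against 222. No paired analysis was possible for M1 because cow 1 and bull 1 share only a number given here. Members with fewer than 3 reads in a library, under 0.132 to 0.793 CPM, are not resolved there.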
